A study of Mus musculus with 18 samples.

Results

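The cell cycle and DNA replication genes described here are 54 protein-coding genes that were picked by their official symbol, each represented by 1 gene ID, out of the 21928 gene symbols in a table of mRNA levels in the mouse small intestine. They were sorted by role into 8 groups: 7 genes of G1 to S control, 11 of origin licensing and the replicative helicase, 7 of DNA synthesis and nucleotide supply, 10 of G2 and mitotic entry, 9 of the kinetochore and spindle checkpoint, 6 spindle motors and midzone proteins, 2 of mitotic exit and 2 of the chromosome structure of dividing cells. The study asked whether remedies for intestinal radiation injury work differently in male and female mice, and sequenced RNA from 18 pieces of small intestine, 3 in each of 6 groups. All mice were C57BL/6 and wild type; no age was found in the labels or methods. The male groups were an unirradiated control, mice given 12 Gy of total abdominal irradiation (TAI), and mice given TAI followed by simvastatin, an inhibitor of cholesterol synthesis, by oral gavage. The female groups were an unirradiated control, mice given TAI, and mice given TAI and then fed a high-fat diet (HFD). Tissue was taken at day 21. Simvastatin was sequenced in males alone and the diet in females alone, so agent and sex cannot be told apart, and neither agent was given here to unirradiated mice.

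A cell that divides first commits in G1, when D-type cyclins with Cdk4 and E-type cyclins with Cdk2 release E2F transcription factors, then copies its DNA in S phase, and then builds and uses a spindle in mitosis. Genes of S phase are switched on largely by E2F factors, and genes of G2 and mitosis by a complex that binds a short promoter element called the cell cycle homology region (CHR). In the small intestine nearly all dividing epithelial cells sit in the crypts, which refill the villi with new cells and are the part of the lining that abdominal irradiation depletes. Because whole tissue was measured, fewer dividing cells and less RNA in each dividing cell cannot be told apart.

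Promoter sequences are shown first, because E2F factors and the complex that binds the CHR act through promoter elements. The sorting of the genes by role did not use these elements. RefSeq promoters of build GRCm38.p6 (250 bases before to 50 after each start) were matched for 41 of the 54 genes, in 43 windows. Searched on both strands, the CHR element TTTGAA was present in 18 of the 43 windows (41.9%, against 17.9% of 32851 windows of all genes), the CCAAT box in 31 (72.1% against 37.4%) and an E2F element (TTTCCCGC, TTTCGCGC, TTTGCCGC or TTTGGCGC) in 9 (20.9% against 2.26%). Of 14 replication genes with a window, 7 had an E2F element and 2 a CHR element. Of 23 mitotic genes with a window, 1 had an E2F element (Cdk1) and 15 a CHR element, and all 15 also had a CCAAT box. The 160 bases before the start are printed for Mcm5 (chr8:75109349-75109508, plus strand) and Mcm6 (chr1:128359706-128359865, minus strand) as helicase genes with E2F elements, for Cdk1 (chr10:69352913-69353072, minus strand) as the gene with all 3 elements, for Mki67 (chr7:135716380-135716539, minus strand) and Cdc20 (chr4:118437344-118437503, minus strand) as mitotic genes with CHR elements, and for Ccnb1 (chr13:100786487-100786646, minus strand) as the gene that passed the test below. Each is written 5′ to 3′ in the direction of the gene, with CHR, CCAAT and E2F letters on either strand in capitals.
Mcm5: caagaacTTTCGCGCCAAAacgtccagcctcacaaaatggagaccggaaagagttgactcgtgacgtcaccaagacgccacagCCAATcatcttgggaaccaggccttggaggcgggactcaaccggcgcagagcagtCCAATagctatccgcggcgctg
Mcm6: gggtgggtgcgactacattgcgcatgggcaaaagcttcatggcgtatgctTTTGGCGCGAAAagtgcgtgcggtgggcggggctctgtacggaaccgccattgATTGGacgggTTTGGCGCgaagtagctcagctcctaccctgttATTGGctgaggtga
Cdk1: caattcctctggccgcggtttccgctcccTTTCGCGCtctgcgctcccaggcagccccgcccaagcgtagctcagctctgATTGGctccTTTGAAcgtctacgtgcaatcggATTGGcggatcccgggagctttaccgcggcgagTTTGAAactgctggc
Mki67: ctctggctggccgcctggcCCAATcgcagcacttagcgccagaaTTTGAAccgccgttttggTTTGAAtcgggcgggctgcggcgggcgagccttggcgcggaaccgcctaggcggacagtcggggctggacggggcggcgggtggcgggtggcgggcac
Cdc20: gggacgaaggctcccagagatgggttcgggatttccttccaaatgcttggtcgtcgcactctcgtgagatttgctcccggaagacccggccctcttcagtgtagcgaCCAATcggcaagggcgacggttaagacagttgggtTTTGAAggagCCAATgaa
Ccnb1: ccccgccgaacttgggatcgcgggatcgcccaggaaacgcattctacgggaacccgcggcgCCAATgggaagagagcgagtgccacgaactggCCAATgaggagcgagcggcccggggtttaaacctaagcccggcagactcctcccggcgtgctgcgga
In Mcm5 and in Mcm6 the longer capital run is a pair of E2F elements on opposite strands that overlap, 153 and 149 bases before the start of Mcm5 and 110 and 106 bases before that of Mcm6. Cdk1 held an E2F element at 131 bases, CCAAT boxes at 80 and 48 bases and CHR elements at 71 and 15 bases before its start. The Ccnb1 stretch held 2 CCAAT boxes, at 99 and 67 bases, and no run of the CHR or E2F letters searched. A match of letters is a description of the sequence and not a measured binding site.

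Levels were in FPKM, fragments counted on a transcript scaled to its length and to the fragments mapped in the library, summed over each gene's transcripts. Over the 18 libraries the mean level of the 54 genes ran from 0.435 FPKM (Gins2, a helicase subunit) to 39.3 FPKM (Ccnd2), with a median of 3.59 FPKM; 44 genes lay between 1 and 10 FPKM and 5 above 10. A gene was tested if it reached 1 FPKM in at least 3 libraries, which 11767 genes did, and 53 of the 54 did; Gins2, at most 0.893 FPKM, did not. Fold changes are log2 differences of FPKM + 1, which understates changes of genes with low FPKM, and come from a limma fit of all 18 libraries with Benjamini-Hochberg adjustment over the 11767 genes and a threshold of 0.05. Nothing in the labels states how the 3 libraries of a group were drawn, so the p-values measure the spread between these libraries. Villus enterocyte markers summed to between 25507 and 41902 FPKM in every library, as befits small intestine.

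Libraries of one group differed widely in these genes. The mean of the 53 genes, as log2 relative to the 18 libraries, was −0.31, 0.37 and −0.13 in male control libraries 1 to 3, 0.05, 0.30 and 0.56 after TAI, and −0.67, 0.06 and −0.30 after TAI with simvastatin. In females it was −0.44, −0.11 and −0.58 in controls, −0.54, −0.03 and 0.75 after TAI, and 0.30, 0.43 and 0.31 after TAI with HFD. Female TAI library 3 stood apart, since 42 of the 53 genes (79.2%, against 33.05% of all genes tested) had their highest level of all 18 libraries there, while 10 of the 53 had their lowest in library 1 of the same group (6.99% of all genes). The HFD libraries were the most alike, with a median SD over the 53 genes of 0.107 on the log2 scale, against 0.687 in female TAI and 0.263 to 0.386 in the other 4 groups. Over all genes tested HFD also had the smallest median SD, 0.0994, and female TAI the largest, 0.214, so neither trait was particular to these genes.

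**Figure D1:**
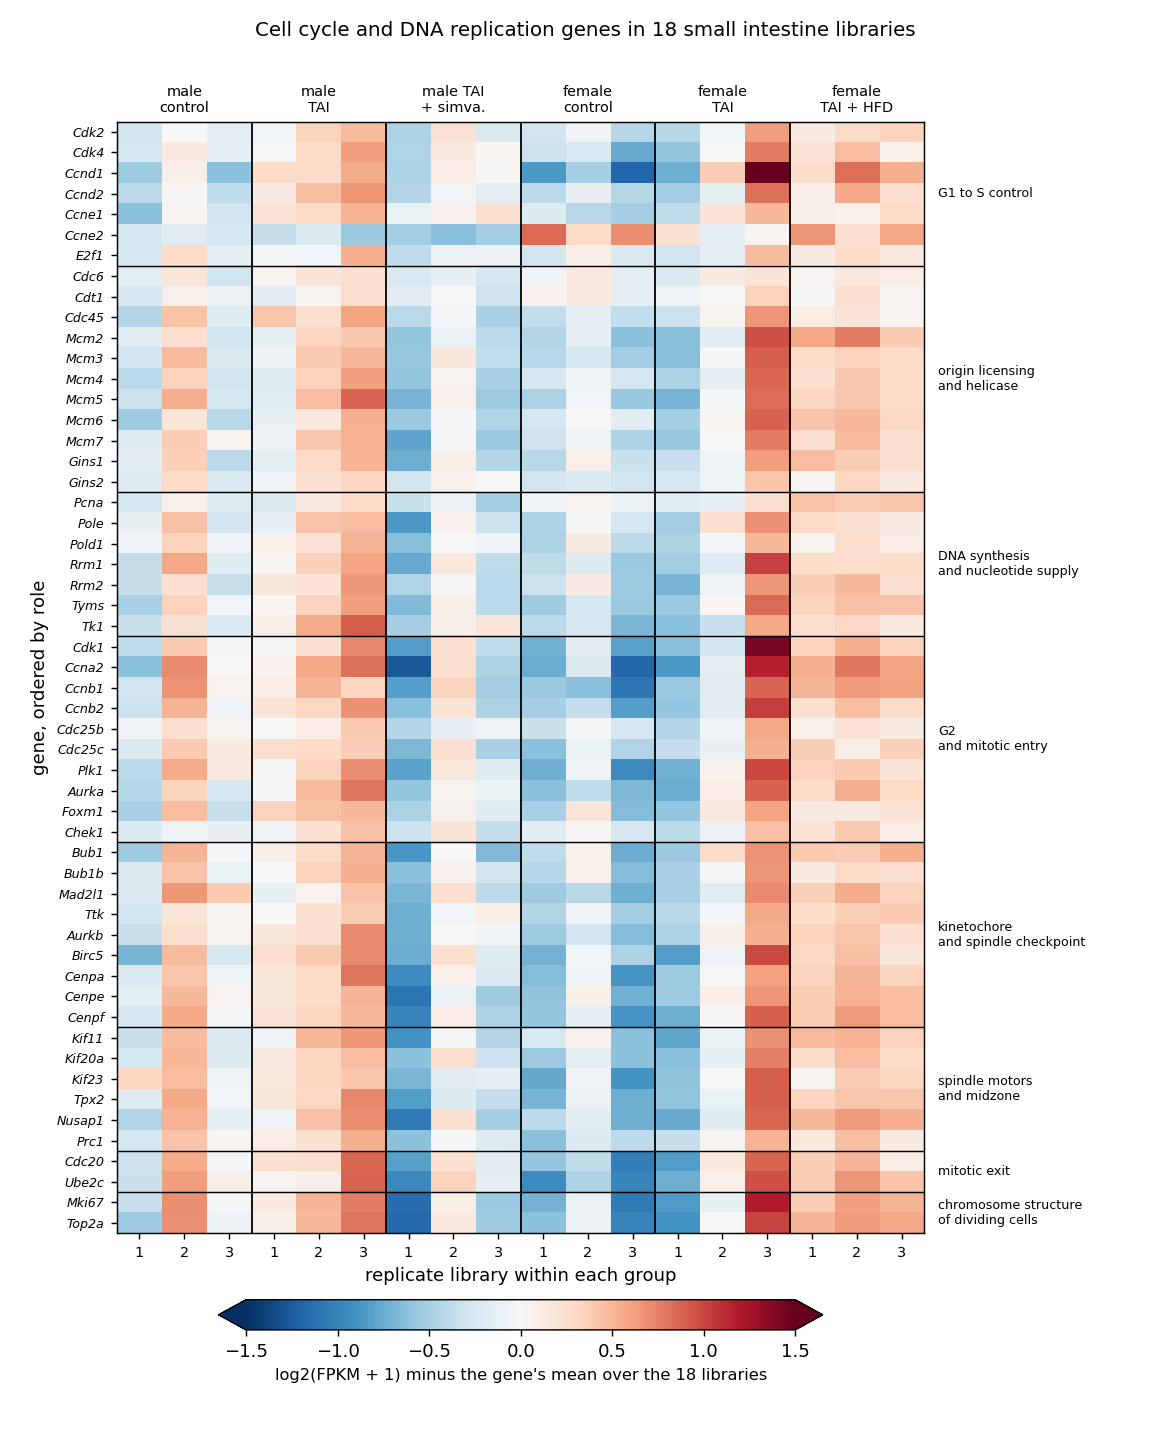
Level of the 54 genes (rows, ordered by role) in the 18 libraries (columns, replicates 1 to 3 within each group), as log2(FPKM + 1) minus each gene's mean over the libraries; red is above and blue below that mean. Female TAI library 3 is red in nearly every row and holds the highest level of 42 of the 53 tested genes, the 3 HFD libraries are alike, and Ccne2 runs against its neighbours.

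The crypt stem cell and ribosomal protein lists broadly rose and fell with the cell cycle genes library by library, and the Paneth list did so in females. The mean of 13 of 14 crypt base stem cell markers that were tested was 0.86 in female TAI library 3, −0.62 in female TAI library 1, and between 0.30 and 0.56 in the HFD libraries. The mean of 12 ribosomal protein genes was 0.88 and −0.61 in those female TAI libraries and between 0.22 and 0.66 in the HFD libraries. Paneth cell markers, products of secretory cells at the crypt base that do not divide, summed to 133, 260 and 107 FPKM in female controls, 249, 606 and 6450 FPKM after TAI, and 904, 2509 and 1060 FPKM after TAI with HFD. The summed Paneth level in males was 196 to 428 FPKM in controls, 537 to 706 FPKM after TAI and 210 to 305 FPKM with simvastatin. In males the Paneth list did not follow library by library. Its mean was −0.93, −0.69 and −0.45 with simvastatin, against −0.67, 0.06 and −0.30 for the cell cycle genes. Smooth muscle markers did not follow in the HFD libraries, with means of −0.51, −0.42 and −0.28. In the female TAI libraries their means were −0.40, 0.18 and 0.43, rising from library 1 to library 3 as the cell cycle genes did. Female TAI library 3 was also the highest of the 18 for the smooth muscle, macrophage and myeloid (0.49) and p53 target (0.21) lists. The high values of that library were thus not limited to crypt and cell cycle lists. Of the stem cell markers Ascl2 was listed at 0 in 1 library and not tested. How much of each library was crypt was not measured, and its part in the results below was not tested.

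**Figure D2:**
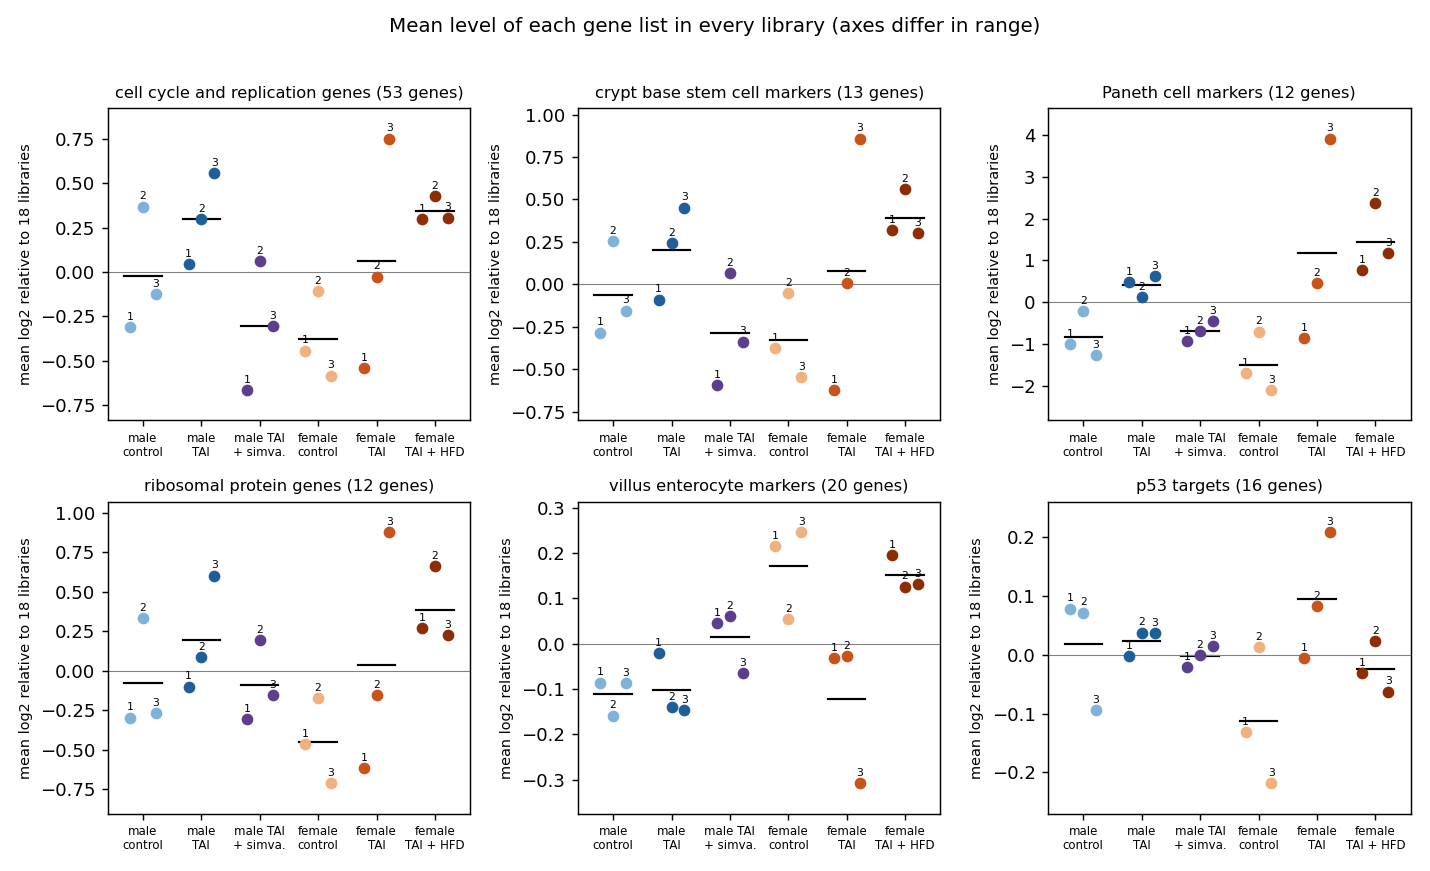
Mean of each gene list in every library, as log2(FPKM + 1) relative to the mean of the 18 libraries (vertical axes differ in range); points are libraries numbered by replicate and bars are group means. The cell cycle, crypt stem cell, Paneth cell and ribosomal protein lists all have their highest library in female TAI replicate 3, from 0.75 for the cell cycle genes upward. The p53 target list also has its highest there, at 0.21, while the villus markers have their lowest, −0.31, there.

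The genes of G1 to S control hold the most abundant of all members. Ccnd2, which encodes cyclin D2, a partner of Cdk4, measured 28.4, 38.2 and 28.8 FPKM in male controls, 41.1, 51.8 and 60.2 FPKM after TAI and 27.5, 36.7 and 34.1 FPKM with simvastatin. In females Ccnd2 measured 28.6, 34.7 and 27.7 FPKM in controls, 25.9, 34.1 and 67.4 FPKM after TAI and 40.5, 56.5 and 45.1 FPKM with HFD. The male TAI libraries all lay above the male controls and above the simvastatin libraries, and the HFD libraries all above the female controls, whereas the female TAI libraries spanned both. Ccne2, which encodes cyclin E2, an activator of Cdk2 at the start of S phase, was picked out after its values were seen because it ran against the rest. It measured 3.22, 3.53 and 3.21 FPKM in male controls, 2.96, 3.41 and 2.45 FPKM after TAI and 2.56, 2.28 and 2.55 FPKM with simvastatin. Its female levels were 8.16, 5.20 and 7.20 FPKM in controls, 4.96, 3.58 and 4.23 FPKM after TAI and 7.02, 5.03 and 6.60 FPKM with HFD. Every female library of Ccne2 lay above every male one, and the female TAI libraries lay below both other female groups. The remaining genes of this role are Ccnd1 (cyclin D1), Ccne1 (cyclin E1), the kinases Cdk2 and Cdk4, and E2f1, an E2F factor; Ccnd1 had the widest female range, from 2.78 FPKM in control library 3 to 23.6 FPKM in TAI library 3.

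Origin licensing loads the Mcm2-7 helicase onto DNA with the help of Cdc6 and Cdt1, and Cdc45 and the GINS proteins (Gins1, Gins2) then switch it on. Mcm6 measured 5.32, 9.44 and 5.85 FPKM in male controls, 7.49, 9.26 and 12.3 FPKM after TAI and 5.23, 8.04 and 5.69 FPKM with simvastatin. In females Mcm6 measured 6.64, 8.19 and 7.24 FPKM in controls, 5.48, 8.42 and 15.9 FPKM after TAI and 11.3, 11.9 and 10.4 FPKM with HFD. The male groups of Mcm6 overlapped, and the HFD libraries lay above all female controls. Mcm2, a common stain for cells licensed to divide, measured 2.52, 3.69 and 2.21 FPKM in male controls, 2.58, 3.94 and 4.21 FPKM after TAI and 1.64, 2.71 and 1.99 FPKM with simvastatin. Female levels of Mcm2 were 1.92, 2.62 and 1.55 FPKM in controls, 1.53, 2.54 and 6.72 FPKM after TAI and 4.90, 5.74 and 4.17 FPKM with HFD. The HFD and control libraries of Mcm2 did not overlap either. The other helicase subunits Mcm3, Mcm4, Mcm5 and Mcm7 varied from 3.61-fold to 4.29-fold between the highest and lowest library, whereas the loaders Cdt1 and Cdc6 varied 1.74-fold and 2.40-fold.

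DNA synthesis was represented by Pcna, the sliding clamp that holds polymerases on DNA, the polymerase catalytic subunits Pole and Pold1, and the nucleotide enzymes Rrm1, Rrm2, Tyms and Tk1. Pcna measured 24.0, 30.7 and 25.5 FPKM in male controls, 24.8, 31.9 and 35.8 FPKM after TAI and 22.8, 27.1 and 19.8 FPKM with simvastatin. Its female levels were 28.0, 30.1 and 27.0 FPKM in controls, 25.8, 26.6 and 34.9 FPKM after TAI and 39.2, 38.0 and 39.0 FPKM with HFD. The HFD libraries of Pcna lay above every other library of either sex. Pcna also varied little, 1.98-fold over the 18 libraries.

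G2 and mitotic entry genes include the mitotic kinase Cdk1 with its cyclins Ccna2, Ccnb1 and Ccnb2, the phosphatases Cdc25b and Cdc25c that switch Cdk1 on, the kinases Plk1 and Aurka, the checkpoint kinase Chek1 that holds Cdk1 off when DNA is damaged, and Foxm1, a transcription factor of mitotic genes. Ccnb1 (cyclin B1) measured 2.27, 5.40 and 3.16 FPKM in male controls, 3.37, 4.76 and 4.02 FPKM after TAI and 1.28, 4.09 and 1.80 FPKM with simvastatin. In females it measured 1.73, 1.61 and 0.901 FPKM in controls, 1.74, 2.60 and 6.38 FPKM after TAI and 4.72, 5.25 and 5.11 FPKM with HFD. The HFD libraries were far above the female controls, the male groups overlapped, and female TAI libraries ran from the top of the control range upward. Ccna2 (cyclin A2) measured 4.06, 11.6 and 6.73 FPKM in male controls, 7.09, 10.4 and 12.7 FPKM after TAI and 2.24, 8.21 and 4.62 FPKM with simvastatin. Female levels of Ccna2 were 3.63, 5.69 and 2.42 FPKM in controls, 3.26, 6.06 and 16.4 FPKM after TAI and 10.2, 12.4 and 10.7 FPKM with HFD. Male control library 2 and simvastatin library 2 were the highest of their groups for both cyclins, and the HFD libraries of Ccna2 again cleared the female controls. Cdk1 itself had the widest range of all 54 genes, 11.1-fold between its highest and lowest library.

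The kinetochore and spindle checkpoint genes build the attachment of chromosomes to the spindle (Cenpa, Cenpe, Cenpf), correct it (Aurkb and its partner Birc5, or survivin) and delay division until it is complete (Bub1, Bub1b, Mad2l1, Ttk). Birc5 measured 3.97, 10.1 and 5.76 FPKM in male controls, 8.55, 9.55 and 12.1 FPKM after TAI and 3.80, 8.50 and 6.09 FPKM with simvastatin. In females Birc5 measured 3.91, 6.79 and 4.80 FPKM in controls, 3.47, 6.59 and 14.9 FPKM after TAI and 8.96, 9.99 and 8.07 FPKM with HFD. Simvastatin libraries of Birc5 all lay below the male TAI libraries, though the nearest pair differed by little, and HFD libraries lay above female controls.

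Spindle motors and midzone proteins push poles apart (Kif11), bundle and nucleate spindle microtubules (Tpx2, Nusap1) and organise the midzone for cytokinesis (Prc1, Kif20a, Kif23). Kif23 measured 9.61, 10.7 and 7.11 FPKM in male controls, 8.47, 9.56 and 10.2 FPKM after TAI and 4.24, 6.60 and 6.64 FPKM with simvastatin. Its female levels were 3.97, 7.17 and 3.54 FPKM in controls, 4.59, 7.50 and 14.9 FPKM after TAI and 7.74, 10.0 and 9.61 FPKM with HFD. Simvastatin libraries of Kif23 were the lowest male group without overlap with either other group, and HFD libraries lay above female controls.

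Mitotic exit was represented by Cdc20, which activates the ubiquitin ligase that ends mitosis, and Ube2c, the enzyme that supplies it with ubiquitin. Ube2c measured 5.50, 11.7 and 7.75 FPKM in male controls, 7.37, 7.72 and 14.1 FPKM after TAI and 3.21, 9.40 and 6.46 FPKM with simvastatin. In females Ube2c measured 3.27, 4.93 and 3.18 FPKM in controls, 3.93, 7.68 and 15.1 FPKM after TAI and 9.66, 11.9 and 10.1 FPKM with HFD. All male groups of Ube2c overlapped, and the HFD libraries lay above the female controls.

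The chromosome structure genes are Mki67, which encodes the Ki-67 protein that coats mitotic chromosomes and is the usual stain for dividing cells, and Top2a, a topoisomerase that untangles them. Mki67 measured 13.2, 28.2 and 16.6 FPKM in male controls, 19.0, 24.7 and 29.7 FPKM after TAI and 7.21, 18.2 and 11.3 FPKM with simvastatin. Female levels of Mki67 were 10.1, 15.9 and 7.64 FPKM in controls, 9.05, 15.7 and 40.0 FPKM after TAI and 22.5, 26.8 and 24.6 FPKM with HFD. Simvastatin libraries lay below every male TAI library, and HFD libraries above every female control, but the female TAI libraries reached from near the lowest to the highest of all.

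**Figure D3:**
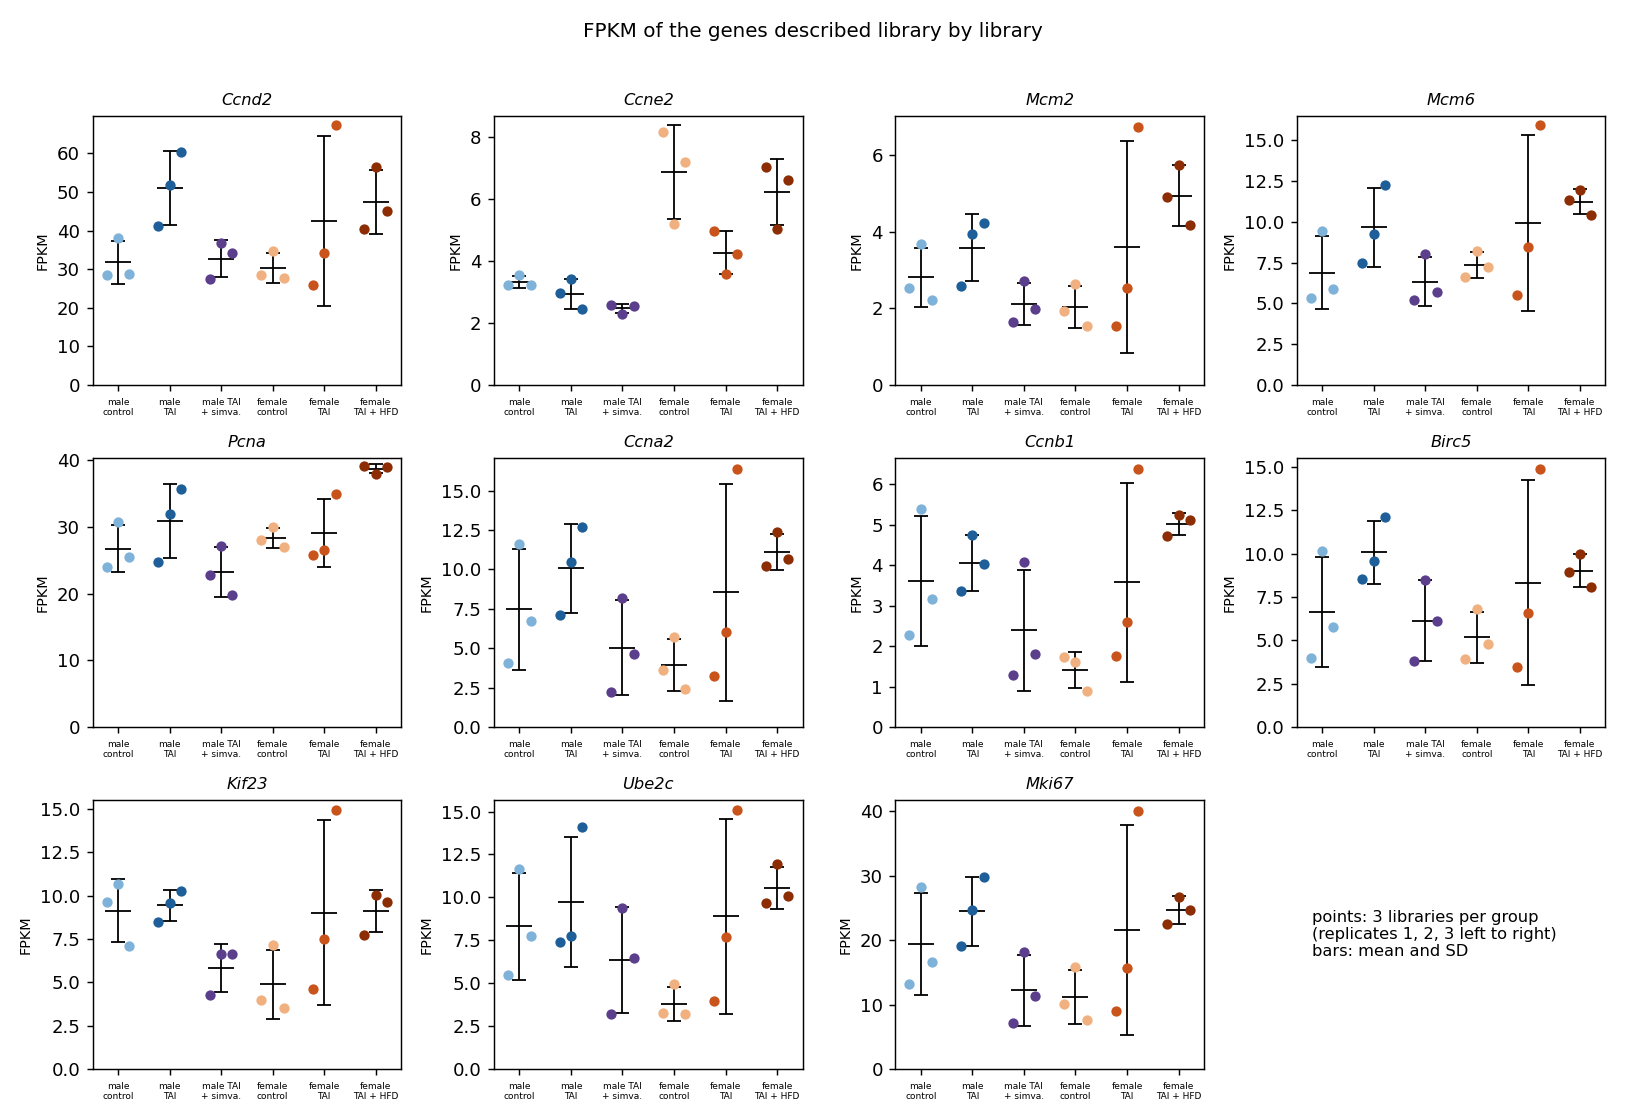
FPKM of 11 genes in every library (points, replicates 1 to 3 from left to right), with the mean and SD of each group (bars, n = 3). For 10 of the 11 genes the 3 HFD libraries lie above the 3 female controls, the exception being Ccne2, and the female TAI group has the widest spread in all but Ccne2 and Pcna.

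In female mice given TAI and HFD, cell cycle genes sat above the unirradiated controls across all roles, but 1 gene passed the test over all genes. Ccnb1 rose by 1.34 ± 0.34 (log2, SE; 95% interval 0.62 to 2.06; adjusted p = 0.0350, limma), from 1.41 ± 0.448 to 5.03 ± 0.278 FPKM (mean ± SD, n = 3), a ratio of means of 3.56. No member passed as lower, against 2.91% of all genes tested that passed as higher and 1.67% as lower. At an unadjusted p under 0.05, 37 of the 53 genes were higher and 0 lower (19.1% of all genes were higher by that rule), and in 48 of the 53 the HFD and control libraries did not overlap, against 29.2% of all genes. The 5 genes with overlap were Ccne2, Cdc6, Cdt1, Foxm1 and Pold1. The median difference was 0.69 over the 53 genes and 0.10 over all genes tested. Smooth muscle markers moved the other way in the same comparison. All 10 were lower with HFD (median −0.44), 7 of them at an unadjusted p under 0.05 and 9 without overlap. Of the 11767 genes tested, 796 and 1268 were lower by these rules. Among these markers Mylk passed the adjusted test as lower, at −0.38 (adjusted p = 0.0143, limma). The summed smooth muscle level was 378 to 458 FPKM in controls, 299.8 to 539 FPKM after TAI and 273 to 315 FPKM with HFD. Against TAI all 10 were again lower with HFD (median −0.50), 8 at an unadjusted p under 0.05 and 2 without overlap. Of the 11767 genes tested, 996 and 1170 were lower by these rules. Mylk passed here too, at −0.39 (adjusted p = 0.0124, limma). The part of muscle content in these differences was not tested.

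By role, the median difference between HFD and female control libraries was smallest for G1 to S control (0.52), licensing and helicase (0.57) and DNA synthesis (0.61), and larger for spindle motors (0.80), the kinetochore (0.83), G2 and mitotic entry (0.90), chromosome structure (1.13) and mitotic exit (1.14). The widest single difference was that of Ccnd1, at 1.40 ± 0.39 (SE, adjusted p = 0.0547, limma). Next by adjusted p came Aurkb (0.83, adjusted p = 0.0673), Mad2l1 (0.98, 0.0685), Ube2c (1.28, 0.0733), Mcm2 (0.98, 0.0789), Cenpa (0.93, 0.0887) and Pcna (0.44, 0.090), none of which passed. At the other end Ccne2 differed by −0.11, Cdt1 by 0.07 and Cdc6 by 0.13. Grouped by promoter, the median difference was 0.93 over 17 genes with a CHR element, 0.55 over 9 with an E2F element and 0.68 over 16 with neither, a gene with both elements counting under each; the difference between these groups of genes was not tested. Since log2 of FPKM + 1 damps genes with low FPKM, levels may enter the order of roles, which was not tested.

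The count of calls in this comparison depended on libraries that are not part of it, because all 6 groups share 1 estimate of the spread. With the HFD and female control libraries fitted alone, 43 of the 53 genes passed, all as higher, against 16.4% of all genes; these included 6 of 6 spindle motor and midzone genes and 8 of 9 kinetochore genes. Without female TAI library 3, 27 passed (14.6% of all genes), among them Mki67 at 1.12 (adjusted p = 0.0350), Pcna at 0.44 (0.0354), Mcm2 at 0.98 (0.00748), Ccna2 at 1.35 (0.0315) and Cdk1 at 0.96 (0.0321). Without female TAI library 1, 12 passed (8.36% of all genes). Leaving out any 1 of the 3 control or 3 HFD libraries took the count to 0, with Ccnb1 then at an adjusted p of 0.0574 to 0.141. The median difference stayed between 0.59 and 0.82 whichever single library was left out. The Ccnb1 call was also lost with no filter on low values (adjusted p = 0.0625) and with its top transcript alone (0.0593). Ccnb1 has processed copies elsewhere in the mouse genome, and whether reads were shared with them was not tested.

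**Figure D4:**
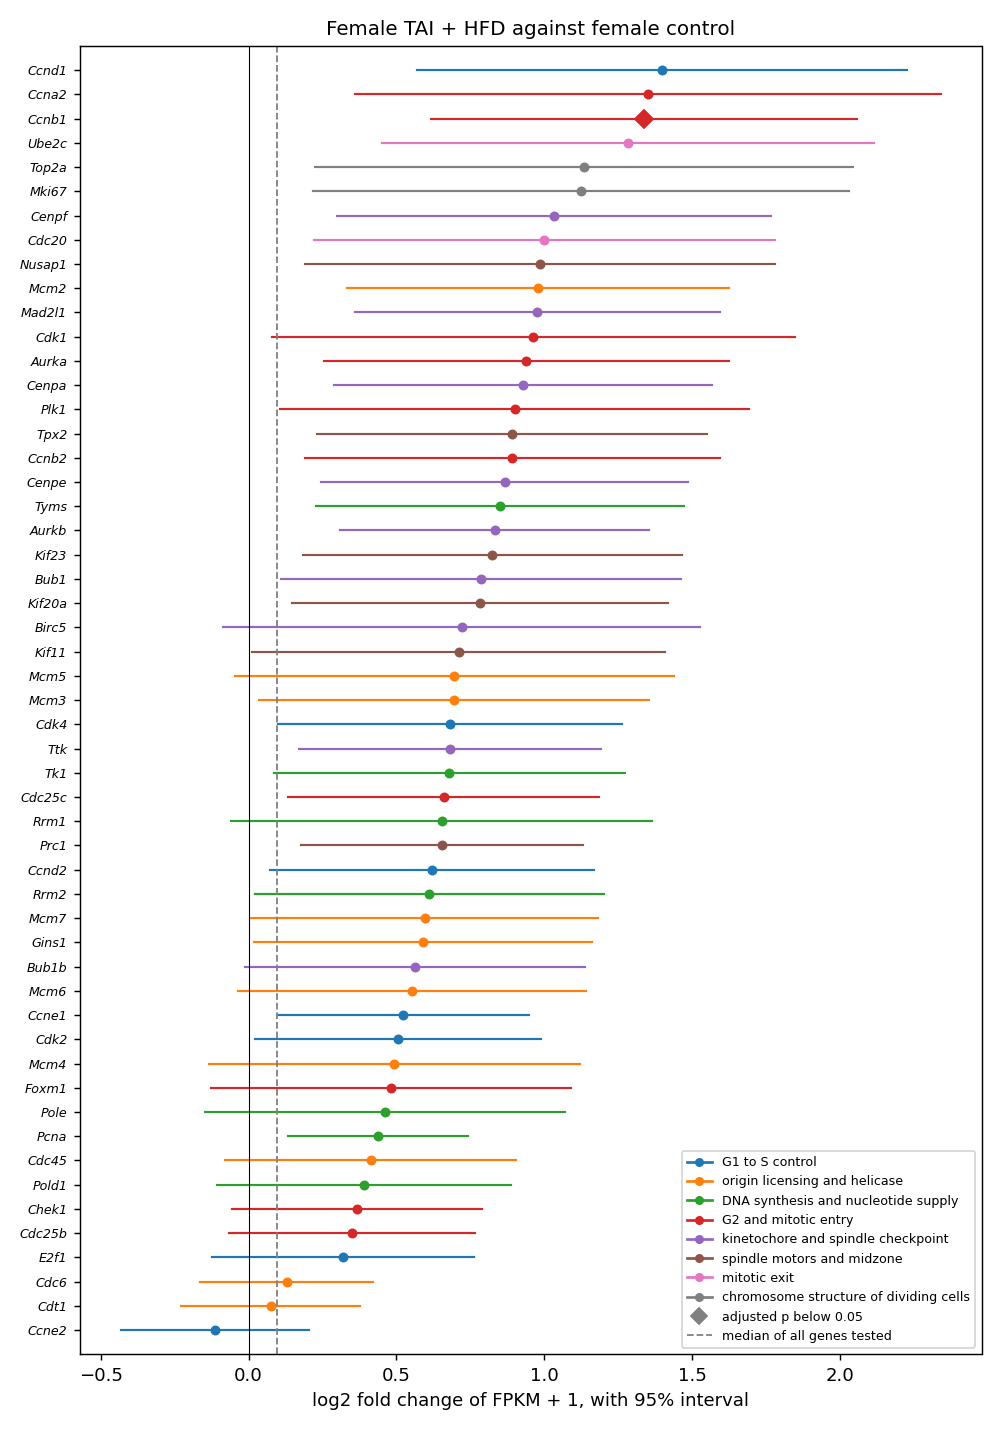
Log2 fold change of FPKM + 1 between female TAI + HFD and female control libraries for the 53 tested genes, with 95% intervals (lines, limma), coloured by role; the dashed line is the median of all genes tested, 0.10. Ccnb1 (diamond) is the one gene past an adjusted p of 0.05, and only Ccne2, at −0.11, lies below 0.

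Against irradiated females without the diet, the HFD libraries showed no call among these genes. The count was 0 higher and 0 lower (1.74% and 1.42% of all genes), with 2 of 53 higher at an unadjusted p under 0.05 (6.49% of all genes). Those were Ccne2 at 0.45 and Pcna at 0.41, which were also the 2 genes whose libraries did not overlap (7.56% of all genes). The median over the 53 genes was 0.27, against −0.01 over all genes. It was −0.04 without female TAI library 1 and 0.64 without library 3, so its direction rested on library 1. Without library 3, Mcm2 (0.98, adjusted p = 0.0223) and Pcna (0.55, 0.0407) passed, against 4.77% of all genes.

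TAI alone in females gave a median of 0.43 over the 53 genes (0.12 over all genes) and no call, with 0 higher and 0 lower against 0.416% and 0.34% of all genes. At an unadjusted p under 0.05, 6 genes were higher (13.6% of all genes), namely Ccnd1 (1.23), Ube2c (0.90), Ccnb1 (0.81), Kif23 (0.68), Aurkb (0.54) and Ccne1 (0.48), and 1 was lower, Ccne2 at −0.57 ± 0.15 (SE, adjusted p = 0.10, limma). The groups did not overlap for Ccnb1 on the higher side (10.3% of all genes) and for Ccne2 on the lower side. Of the 11767 genes tested, 422 were lower at an unadjusted p under 0.05 and 487 were lower without overlap. Without female TAI library 1 the median was 0.76 and 8 genes passed (8.92% of all genes), 7 as higher (Ccnd1, Ccne1, Aurka, Kif23, Cdc20, Ube2c, Aurkb) and Ccne2 as lower at −0.66 (adjusted p = 0.0287). Without library 3 the median was 0.11 and none passed.

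In males, TAI gave a median of 0.31 over the 53 genes (0.05 over all genes), with 51 of the 53 differences above 0. The test called 0 higher and 0 lower, against 1.2% and 0.901% of all genes. At an unadjusted p under 0.05, 3 genes were higher (6.88% of all genes), Ccne1 at 0.63 (adjusted p = 0.149, limma), Ccnd2 at 0.66 and Tk1 at 0.63. The libraries did not overlap for 4 genes, all higher with TAI (10.3% of all genes), and 3 of them were the G1 cyclins Ccnd1, Ccnd2 and Ccne1, the other being Chek1. Without female TAI library 3, which enters only through the shared spread, Ccnd2 passed at 0.66 (adjusted p = 0.0469). The median was 0.17 without male control library 1, 0.52 without male control library 2 and 0.18 without male TAI library 3.

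Simvastatin after TAI gave lower values than TAI alone for all 53 genes, although none passed the test over all genes. Of the 53 genes, 0 were called higher and 0 lower (0.0765% and 0.62% of all genes), and the adjusted p-values ran from 0.224 to 0.547 (limma). At an unadjusted p under 0.05, 26 genes were lower and 0 higher (12.2% of all genes were lower), and in 21 genes every simvastatin library lay below every TAI library (19.6% of all genes). The median was −0.62, against −0.09 over all genes, and stayed between −0.78 and −0.42 whichever library was left out. Mki67 had the widest difference, −1.01 ± 0.43 (SE; 95% interval −1.92 to −0.10; adjusted p = 0.313), from 24.5 ± 5.36 FPKM with TAI alone to 12.2 ± 5.54 FPKM with simvastatin (SD, n = 3). Top2a differed by −0.98, Ccna2 by −0.97, Cenpe by −0.90 and Cdc45, which had the smallest p, by −0.72 (adjusted p = 0.224). By role the median was −0.40 for G1 to S control, −0.57 for licensing and helicase, −0.62 for DNA synthesis and for G2 and mitotic entry, −0.64 for mitotic exit, −0.68 for the kinetochore, −0.71 for spindle motors and −0.99 for chromosome structure. Markers of other cell types moved both ways with simvastatin in the same libraries. All 12 Paneth markers tested were lower (median −1.15), 1 at an unadjusted p under 0.05 and 10 without overlap. Of 10 smooth muscle markers, 9 were lower (median −0.16), 1 at that p and 2 without overlap. Of all genes, 12.2% were lower at that p and 19.6% without overlap. B cell markers split, with 5 higher and 4 lower, and 16 of 20 villus markers were higher. Of 12 T cell markers tested, 11 were higher (median 0.27), 5 at an unadjusted p under 0.05 and 6 without overlap. Of the 11767 genes tested, 317 and 685 were higher by these rules. The summed T cell level was 83.2 to 147 FPKM after TAI and 143 to 196 FPKM with simvastatin. All 4 erythroid markers tested were higher (median 0.77), each at an unadjusted p under 0.05, with a summed level of 20.5 to 28.4 against 27.4 to 74.7 FPKM. Of 11 macrophage and myeloid markers tested, 7 were higher and 4 lower, with 0 at an unadjusted p under 0.05. In 6 of them the simvastatin libraries all lay above the TAI libraries. The summed level was 60.8 to 75 FPKM after TAI and 77.4 to 94.3 FPKM with simvastatin. None of these markers passed after adjustment, and the part of these cells in the cell cycle differences was not tested.

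The 21 genes without overlap between the simvastatin and TAI libraries came from most roles. They were Ccnd1, Ccnd2 and E2f1 of G1 to S control, Cdc6 and Cdc45 of licensing, Pold1 and Rrm2 of DNA synthesis, Ccnb2, Cdc25b, Cdc25c and Foxm1 of mitotic entry, Aurkb, Birc5, Bub1, Cenpa, Cenpe and Cenpf of the kinetochore, Kif23, Prc1 and Tpx2 of the spindle, and Mki67. Simvastatin library 1 held the lowest level of all 18 libraries for 24 of the 53 genes (8.44% of all genes). Against unirradiated males the simvastatin libraries gave a median of −0.30 (−0.07 over all genes) and 0 calls higher and 0 lower (2.74% and 2.63% of all genes). There, Cenpe at −0.71 and Ccne2 at −0.32 were lower at an unadjusted p under 0.05 (10.7% of all genes, limma), and Ccne2, Cdc25b, Kif23 and Tpx2 did not overlap between groups (16.6%). That median was −0.11 without male control library 2 or without simvastatin library 1, and −0.47 without simvastatin library 2. The comparisons within each sex share libraries, so they are not independent of each other.

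**Figure D5:**
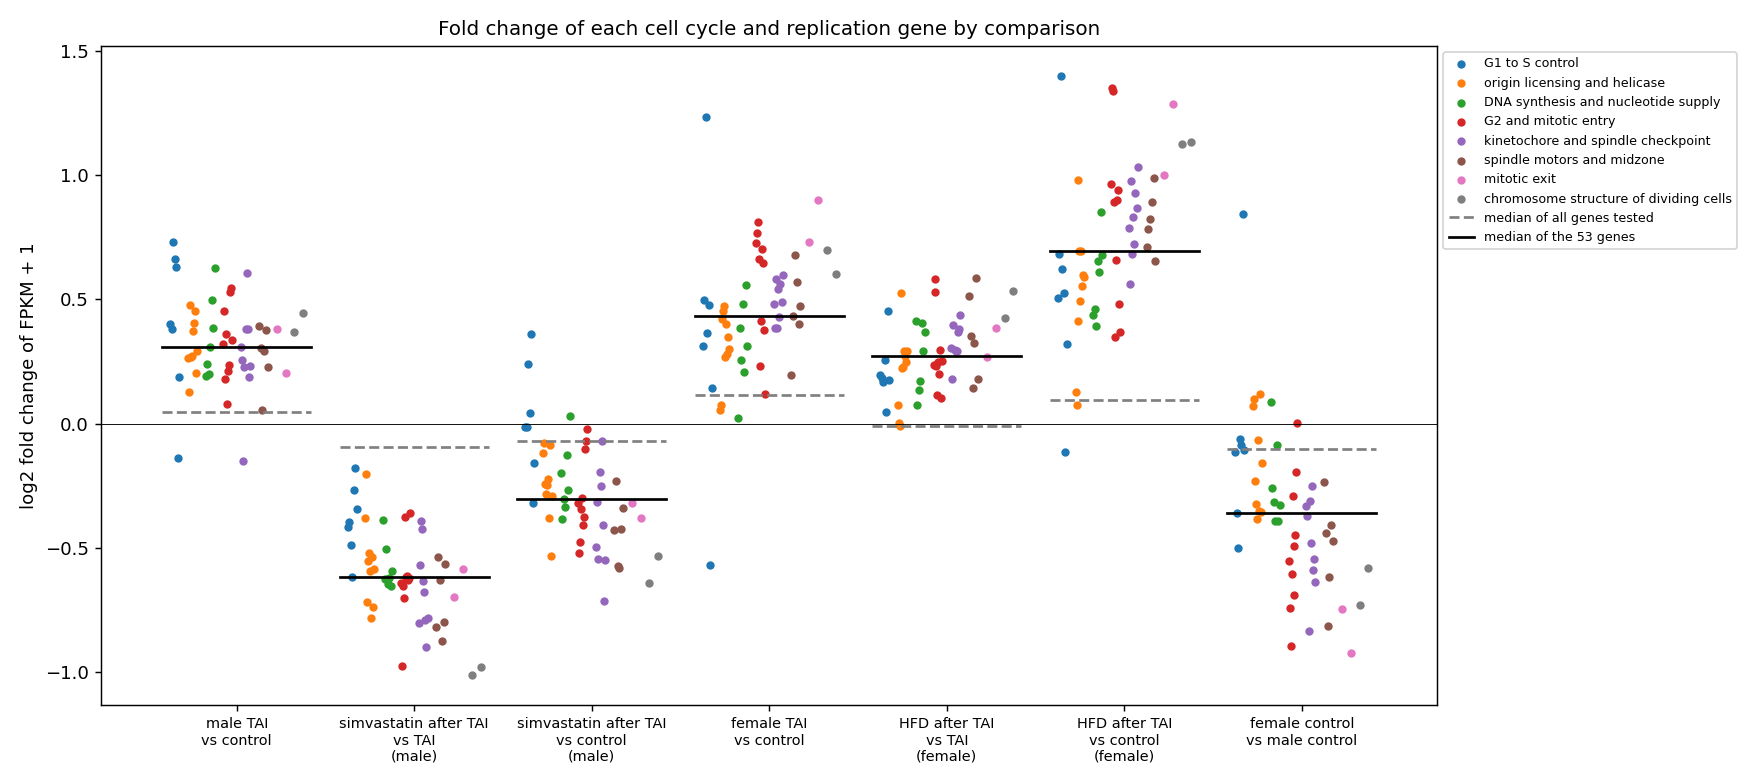
Log2 fold change of FPKM + 1 of each of the 53 tested genes (points, coloured by role) in 7 comparisons, with the median of the 53 genes (solid bar) and of all genes tested (dashed bar). The simvastatin against TAI comparison has all 53 points below 0, with a median of −0.62, and the HFD against control comparison has 52 above 0, with a median of 0.69.

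For none of the 53 genes did a difference between females and males in the change with TAI pass the limma interaction test. It called 0 genes higher and 0 lower (0.501% and 0.833% of all genes), and 0 genes reached an unadjusted p under 0.05 (6.39% of all genes were higher in females by that rule). The differences, female minus male, ran from −0.43 for Ccne2 to 0.73 for Mad2l1, with a median of 0.14 that was 0.43 without female TAI library 1, −0.22 without female TAI library 3, −0.07 without male control library 2 and −0.02 without male TAI library 1.

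Unirradiated females and males differed in 1 of these genes. Ccne2 was higher in females by 0.84 ± 0.15 (SE, adjusted p = 0.00483, limma), 6.85 ± 1.51 against 3.32 ± 0.181 FPKM (SD, n = 3), a ratio of 2.06, and 0 genes were called lower (2.12% of all genes passed as higher in females and 3.02% as lower). The Ccne2 call was lost with its top transcript alone (adjusted p = 0.0638) and kept in the other 28 alternative settings. At an unadjusted p under 0.05, 4 genes were lower in females (13.8% of all genes), Ube2c (−0.92), Ccnb1 (−0.90), Mad2l1 (−0.83) and Kif23 (−0.82), and the last 2 passed without female TAI library 3. In 5 genes, Ccnb1, Ccnb2, Cdc20, Mad2l1 and Ube2c, all female controls lay below all male controls (17.7% of all genes). The median over the 53 genes was −0.36, against −0.10 over all genes, and −0.18 without male control library 2.

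Over all 6 groups, the group with the lowest mean was the female control for 36 of the 54 genes, simvastatin for 17 and the male control for 1. The highest mean belonged to male TAI for 26 genes, to TAI with HFD for 24, to female TAI for 3 and to the female control for 1, Ccne2. The order of group means was not counted over all genes. How far it was particular to these genes was therefore not tested. By single library, female control library 3 held the lowest level for 12 of the 53 tested genes and for 18.92% of all genes tested. Dividing the libraries by another scale shifted the median of all genes by up to 0.12 on the log2 scale (female TAI against control), and the members' median relative to all genes kept its sign in all 8 comparisons under quantile and median ratio scaling.

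Other genes of the same processes were counted in the same fit. Of 74 other mitotic genes, 68 were tested; in HFD against female control libraries 0 passed and 51 were higher at an unadjusted p under 0.05 (19.1% of all genes; median 0.73), and in simvastatin against TAI 0 passed and 38 were lower (12.2% of all genes; median −0.59, limma). Of 51 other replication genes, 49 were tested, and the corresponding counts were 0 and 18 (median 0.43) and 0 and 25 (median −0.45). Cit, a citron kinase of cytokinesis, was the mitotic gene that passed elsewhere, with −1.05 between simvastatin and male control libraries (adjusted p = 0.0452), but −0.01 with its top transcript alone; it passed under 15 of 29 alternatives (adjusted p from 0.0225 to 0.994), and was lost, among others, on leaving out male control library 1 or 2 or any 1 simvastatin library, with the replicate block and with no filter.

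Some regulators outside the list passed the test. Wee1, the kinase that keeps Cdk1 off until mitosis, measured 1.70, 3.12 and 2.51 FPKM in male controls, 5.23, 4.87 and 7.58 FPKM after TAI and 7.64, 7.42 and 7.82 FPKM with simvastatin. In females Wee1 measured 7.01, 7.68 and 7.46 FPKM in controls, 3.12, 4.32 and 5.28 FPKM after TAI and 8.95, 7.78 and 6.74 FPKM with HFD. Male controls and female TAI libraries were thus the low groups. Wee1 rose with TAI in males (adjusted p = 0.00660, limma) and was higher in female than male controls by 1.31 (0.000637). It also rose with HFD over TAI in females by 0.77 (adjusted p = 0.0257), a call that passed under 22 of 29 alternatives (0.00756 to 0.188) and was lost, among others, without female TAI library 1 (0.60, 0.0790), female TAI library 2 (0.79, 0.0660), HFD library 1 (0.68, 0.130) or HFD library 2 (0.77, 0.0887). E2f2, an E2F factor, measured 6.39, 8.37 and 8.46 FPKM in male controls and 2.67, 3.22 and 2.70 FPKM with simvastatin, a fall of 1.17 on the log2 scale (adjusted p = 0.00171). Cdkn2b, which encodes the Cdk4 inhibitor p15, fell with TAI in males by 0.41 (adjusted p = 0.00858), from 54.7, 56.5 and 57.1 FPKM to 44.1, 41.9 and 39.8 FPKM; that call was lost without male TAI library 3 (−0.38, adjusted p = 0.0571) and with the compared groups alone (0.055).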

How the data were processed

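RNA from mouse small intestine was sequenced in 18 libraries, 3 in each of 6 groups defined by the labels. The authors deposited FPKM per transcript; tools in the processing notes of the submitters were Bowtie2 2.2.8, Cuffdiff 2.1.1, HISAT2 and StringTie 1.3.1, and what each did for this table, and the genome build, are not given in the sources used here. No read counts were used, so exact depth is unknown; from the smallest steps of the FPKM values, relative depth ran from 0.785 to 1.18. Of 18 libraries, 0 pairs held identical values. FPKM of 55869 transcripts were summed to 21928 symbols, and 10161 below the filter were left out.

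log2(FPKM + 1) was fitted with limma 3.58.1 (R 4.3.3; 1 mean per group, intensity trend, 12 residual degrees of freedom); plots used Python 3.11.15 and matplotlib 3.10.9. The script was tested on simulated data. Members, roles and lists were chosen with earlier results of these data known. Values in every library were given for members past the threshold in same-sex comparisons, the member of each role with the highest mean FPKM, and Mki67, Pcna and Mcm2; Ccne2 was added after its values were seen. Of other genes that passed, up to 2 per list by smallest p were named for some lists. Of the Paneth and ribosomal lists these were Defa17, Defa30 and Rps2. Calls of villus, erythroid, B cell, myeloid and p53 target genes were not named. Simvastatin libraries had 4 of 4 erythroid and 3 of 11 myeloid markers called higher than male controls (2.74% of all genes). Of 20 villus markers, HFD had 5 called higher and 1 lower than TAI (1.74% and 1.42% of all genes). Against female controls 2 were higher and 4 lower (2.91% and 1.67%). Medians of gene lists are descriptions without a test. Same-numbered libraries were not treated as pairs in the main fit. Deviations of same-numbered libraries from their group means correlated at r from −0.459 to 0.322. Deviations of 3 libraries from their own mean are not independent, so these values cannot decide whether the numbers pair the libraries. Alternatives were another pseudocount (0.1), filters, scalings, weights, groups fitted alone, a replicate block, the top transcript, a threshold of 0.1 and leaving out each library.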

Additional observations from a re-analysis of the deposited data

Results flagged for a closer look

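In 3 regulators outside the list of 54 genes, the change with TAI differed between the sexes by limma's test of the difference itself. All 3 also differed between unirradiated females and males, and the controls are part of this test. For Wee1 the change in females minus that in males was −1.70 ± 0.25 (log2, SE; adjusted p = 0.00234), and it passed under all 29 alternatives (adjusted p from 0.000359 to 0.0265). For Cdkn2b the difference was 0.70 ± 0.11 (adjusted p = 0.00338), and it also passed under all 29 (0.000830 to 0.0400). For E2f2 it was 1.33 ± 0.27 (adjusted p = 0.0221), and it passed under 20 of 29 (0.00286 to 0.115). E2f2 measured 5.62, 4.43 and 5.02 FPKM after TAI in males, and in females 2.53, 4.26 and 1.87 FPKM in controls and 4.46, 5.22 and 7.23 FPKM after TAI. Cdkn2b measured 38.4, 35.7 and 35.7 FPKM in female controls and 39.6, 49.3 and 45.8 FPKM after TAI. Female controls differed from male controls by −1.21 for E2f2 (adjusted p = 0.00208, limma) and by −0.60 for Cdkn2b (0.000421). Mean levels after TAI were 5.02 FPKM in males and 5.64 FPKM in females for E2f2. For Cdkn2b they were 41.9 and 44.9 FPKM, and for Wee1 5.89 and 4.24 FPKM.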

How the results depend on the processing

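For HFD against female control libraries, the count of 1 cell cycle gene (4.59% of all genes passed in either direction) became 2 with a pseudocount of 0.1 (4.78% of all genes), 0 without a filter (2.51%), 4 with quantile normalization (7.39%), 4 with median ratio scaling (5.74%), 33 with groups weighted by their own spread (20.2%), 43 with the compared groups fitted alone (16.4%), 2 with the replicate block (3.86%), 0 with the top transcript (3.18%) and 11 at a threshold of 0.1 (10.3%); leaving out 1 library gave 0 to 27. For HFD against TAI the count of 0 became 1 with median ratio scaling (Pcna; 2.24% of all genes) and 1 with the replicate block (Ccne2; 2.57%), and leaving out 1 library gave 0 to 2. Leaving out 1 library gave 0 to 8 for TAI in females, 0 to 1 for TAI in males and 1 to 3 for female against male controls, where the top transcript gave 0. The replicate block moved no other count of cell cycle genes by more than 1.5 times. Of 232 counts under alternatives, 208 equalled the value given or stayed within 1.5 times of it, and 24 moved. In most comparisons the value given was 0, where an unchanged count was 0 against 0. The total of 208 therefore says little about how stable the counts above 0 were. Of the fold changes of named genes that were recomputed under the alternatives, none changed direction; the other single genes given above were not each recomputed. The cause of these shifts was not tested, except that settings without female TAI library 3, or with the compared groups alone, estimate the spread from other libraries.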

Other observations

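Among marker genes outside the cell cycle list, the defensins Defa17 and Defa30, products of Paneth cells, rose in TAI with HFD over female controls by 3.38 (adjusted p = 0.0209, limma) and 3.62 (0.0215) on the log2 scale of FPKM + 1. Each passed under 25 of 29 alternatives, and both calls were lost without female control library 1 or 3 or HFD library 1 or 2 (adjusted p of 0.0533 to 0.105 for Defa17 and 0.0512 to 0.110 for Defa30). Defa17 measured 7.36, 19.0 and 5.41 FPKM in the controls, 33.3, 43.6 and 563 FPKM after TAI, and 76.1, 180 and 84.8 FPKM with HFD. Defensin genes are near-identical copies, and how reads were shared among them was not tested. Rps2, a ribosomal protein gene, rose by 1.33 in the same comparison (adjusted p = 0.0163), but differed by 0.28 with its top transcript alone (0.833), and the call was lost without female control library 3 (0.0841), HFD library 1 (0.0589) or HFD library 2 (0.0832). Cdk6, a D-cyclin partner named after its values were seen, rose by 0.87 (adjusted p = 0.0473), from 1.92, 2.98 and 2.12 FPKM in controls to 4.40, 5.66 and 5.16 FPKM with HFD; it passed under 12 of 29 alternatives (adjusted p from 0.00389 to 0.181), and leaving out female control library 1 or 3 or any 1 HFD library lost the call.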
